A study of Homo sapiens with 18 samples.

Results

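Cadherins are the transmembrane proteins by which neighbouring cells hold on to each other, and the mRNA levels of 8 of them were followed here through a model of breast cancer progression in which METTL3, the enzyme that writes most N6-methyladenosine (m6A) on mRNA, was targeted by CRISPR. The 8 genes were chosen by symbol and not by their values: CDH1 (E-cadherin), CDH2 (N-cadherin), CDH3 (P-cadherin), CDH4 (R-cadherin), CDH5 (VE-cadherin), CDH6 (K-cadherin), CDH11 (OB-cadherin) and CDH13 (T-cadherin). All 8 were found among the 35933 genes with values. The 18 libraries fell into 6 groups of 3. MCF10A cells are human breast epithelial cells that became immortal in culture and form no tumours. MCF10AT1 cells carry a mutated HRas in addition, and MCF10CA1h cells were in turn derived from these by passage as xenografts in mice. Within each line, a control group that had received a CRISPR construct with a control guide was compared with a group whose construct targeted exon 1 of METTL3. All 6 groups thus carried the same handling: transfection with Cas9, guide and mCherry on 1 construct, sorting for mCherry and selection of single-cell clones, in medium with horse serum, insulin, hydrocortisone, cholera toxin and EGF. The 3 libraries of a group, named a, b and c, came from a single CRISPR line, so the METTL3 guide and the choice of clone cannot be told apart, and p-values measure the spread between libraries of 1 clone. Values are the normalized counts deposited by the authors, and differences are on the log2 scale of the normalized count plus 1.

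Classical cadherins bind the same cadherin on the next cell through their outer domains. Their tails bind catenins such as p120-catenin and plakoglobin, of which plakoglobin leads on to alpha-catenin and actin. E-cadherin is the main cadherin of epithelia, and P-cadherin is found beside it in the basal cells of the breast. Exchange of E-cadherin for N-cadherin is a hallmark of the epithelial to mesenchymal transition (EMT), in which cells lose their junctions and become motile. R-cadherin was first described in retina and nerve tissue, VE-cadherin belongs to endothelium, OB-cadherin to osteoblasts and mesenchymal cells, and T-cadherin has no cytoplasmic tail and is held in the membrane by a lipid anchor. METTL3 mRNA itself was a weak check of the labels: the group mean in the METTL3 CRISPR libraries was 128% of control for MCF10A, 88.5% for MCF10AT1 and 70.8% for MCF10CA1h, and only the last difference passed the test (limma, adjusted p = 0.618, 0.707 and 0.0234). Transcript level need not follow an edit in the first exon, so the groups are called METTL3 CRISPR below. The values of the 18 libraries summed to between 21347352 and 31681834.

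The largest rearrangement was in MCF10AT1, where CDH1 and CDH3 fell and CDH2, CDH4 and CDH11 rose in the METTL3 CRISPR libraries. Of the 6 cadherins with a mean of at least 10, which is the filter for a test, 5 passed at an adjusted p under 0.05, against 13% of all 16050 genes tested in this line. The 3 that rose reached the filter only through the METTL3 CRISPR group. They compare with 7.07% of all genes and the 2 that fell with 5.96%. The arms of all 5 did not overlap, as was so for 32.8% of genes. CDH1 was at 3475, 2105 and 6138 in the control libraries a, b and c and at 11.6, 31.7 and 79.2 in the METTL3 CRISPR libraries. E-cadherin mRNA was thus at 1.05% of its control mean, with the highest METTL3 CRISPR library far under the lowest control (log2 difference -6.79, SE 0.68, adjusted p = 0.000474). In bulk RNA, fewer cells with a transcript and less of it per cell cannot be told apart. CDH3 was at 6236, 4393 and 6627 in control and at 1298, 1684 and 1927 after METTL3 CRISPR. The groups did not overlap, and the mean was 3.52-fold lower (log2 difference -1.81, SE 0.29, adjusted p = 0.00444).

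N-cadherin went from near 0 to its highest level in any group. CDH2 was at 0.72, 0 and 4.1 in the MCF10AT1 control libraries and at 243, 362 and 468 in the METTL3 CRISPR libraries (log2 difference 7.39, SE 0.70, adjusted p = 0.000361). CDH4 moved in the same direction, from 1.84, 6.96 and 1.68 to 60.1, 318 and 212 (log2 difference 5.35, SE 0.78, adjusted p = 0.00297). Library a stood lowest of the 3 METTL3 CRISPR libraries for both genes. CDH11 was listed at 0, 0 and 7.1 in control and at 141, 96.7 and 256 after METTL3 CRISPR (log2 difference 6.25, SE 0.92, adjusted p = 0.00314). These 3 genes were close to 0 in control, so their differences depend on the value added before the log, and no fold is given. With 5 in place of 1 they were smaller and still passed the test. CDH13 was at 37.6, 42.9 and 119 in control and at 17.7, 21.1 and 86.6 after METTL3 CRISPR, groups that overlapped (log2 difference -0.83, 95% interval -2.52 to 0.86, adjusted p = 0.515). In both arms library c had the highest CDH1, CDH3, CDH11 and CDH13.

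**Figure D1:**
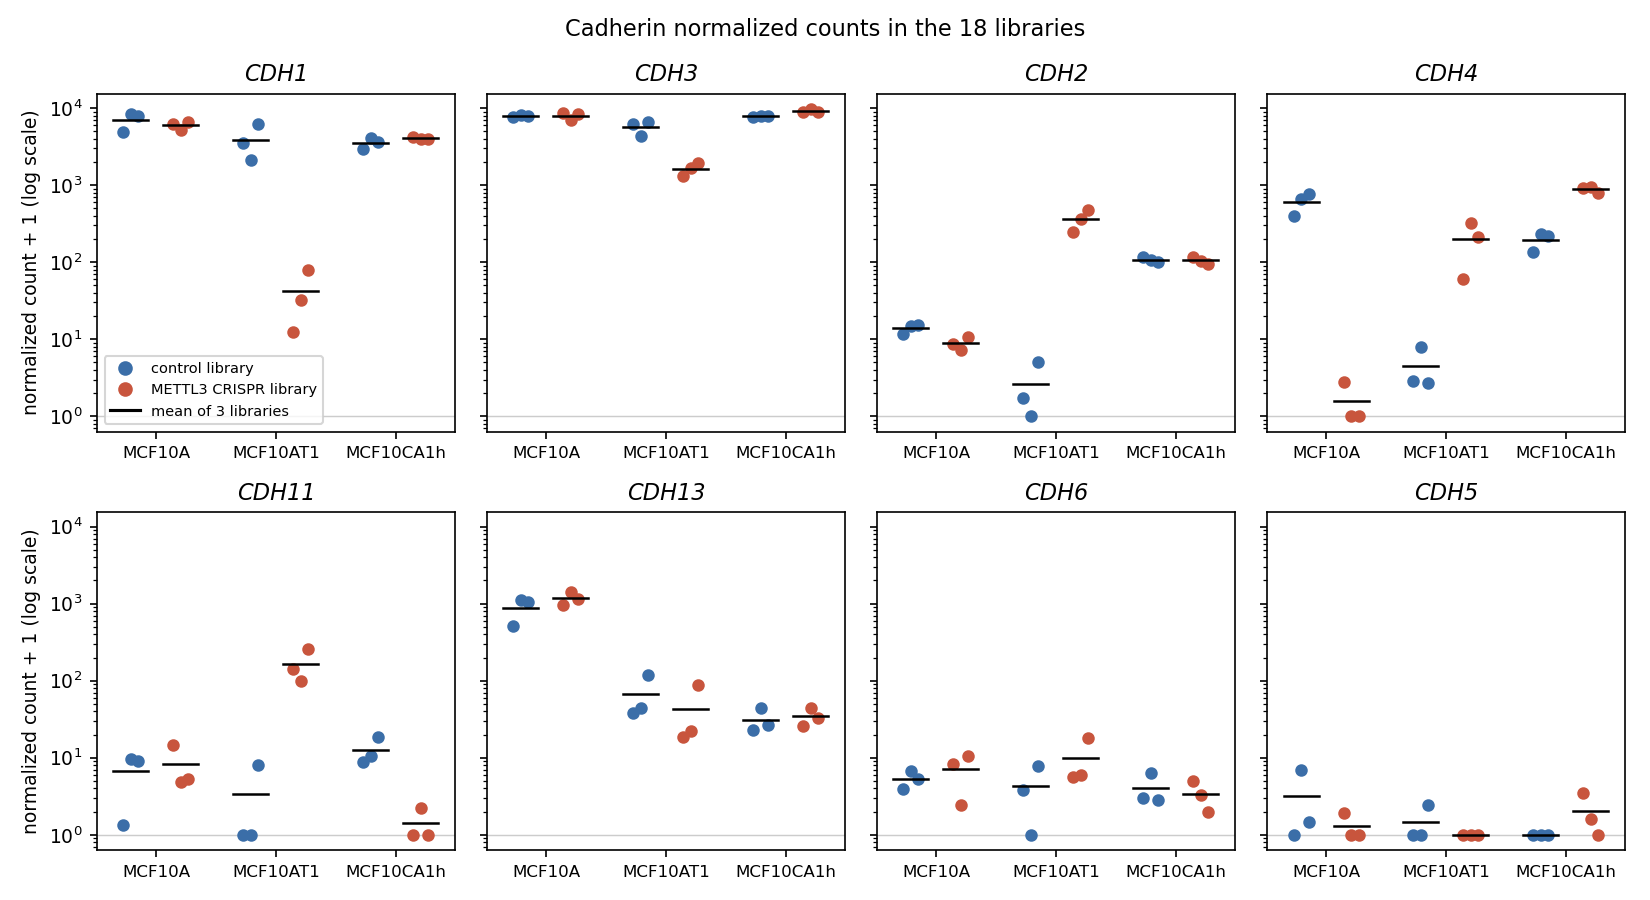
Normalized count plus 1 on a log axis for the 8 cadherins in the 18 libraries. Each point is a library, blue for control and red for METTL3 CRISPR, and each line is the mean of 3 libraries. In MCF10AT1 the CDH1 points fall from 2105 or more to between 11.6 and 79.2 while those of CDH2, CDH4 and CDH11 rise, and CDH4 moves in opposite directions in MCF10A and in the other lines.

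Whether the cadherins that rose take the place of E-cadherin in amount was examined per length, because longer transcripts collect more reads. Each normalized count was divided by the length of the gene's canonical transcript in kilobases (GENCODE 44). On this scale CDH3, not CDH2, was the most abundant cadherin mRNA in MCF10AT1 after METTL3 CRISPR. It made up 70.7% ± 4.32 (SD, n = 3) of the summed level of the 8 cadherins, beside 16.8% ± 1.17 for CDH2, 5.34% ± 3.27 for CDH4, 4.65% ± 1.74 for CDH11 and 1.46% ± 0.98 for CDH1. In the controls of this line CDH3 had held 62.8% ± 8.18 and CDH1 36.8% ± 8.02. The rise of CDH2, CDH4 and CDH11 together, 141.7 normalized counts per kilobase, equalled 17.6% of what was lost of CDH1, which fell by 803, and CDH3 fell by 924. The summed level therefore fell from 2114 ± 676 to 525 ± 131 (SD, n = 3), or to 24.9% of control, with no overlap between the lowest control library (1431) and the highest METTL3 CRISPR library (649). Division by coding length, or no division, gave 18.4% in both cases in place of 17.6%. No test was run on these sums.

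**Figure D2:**
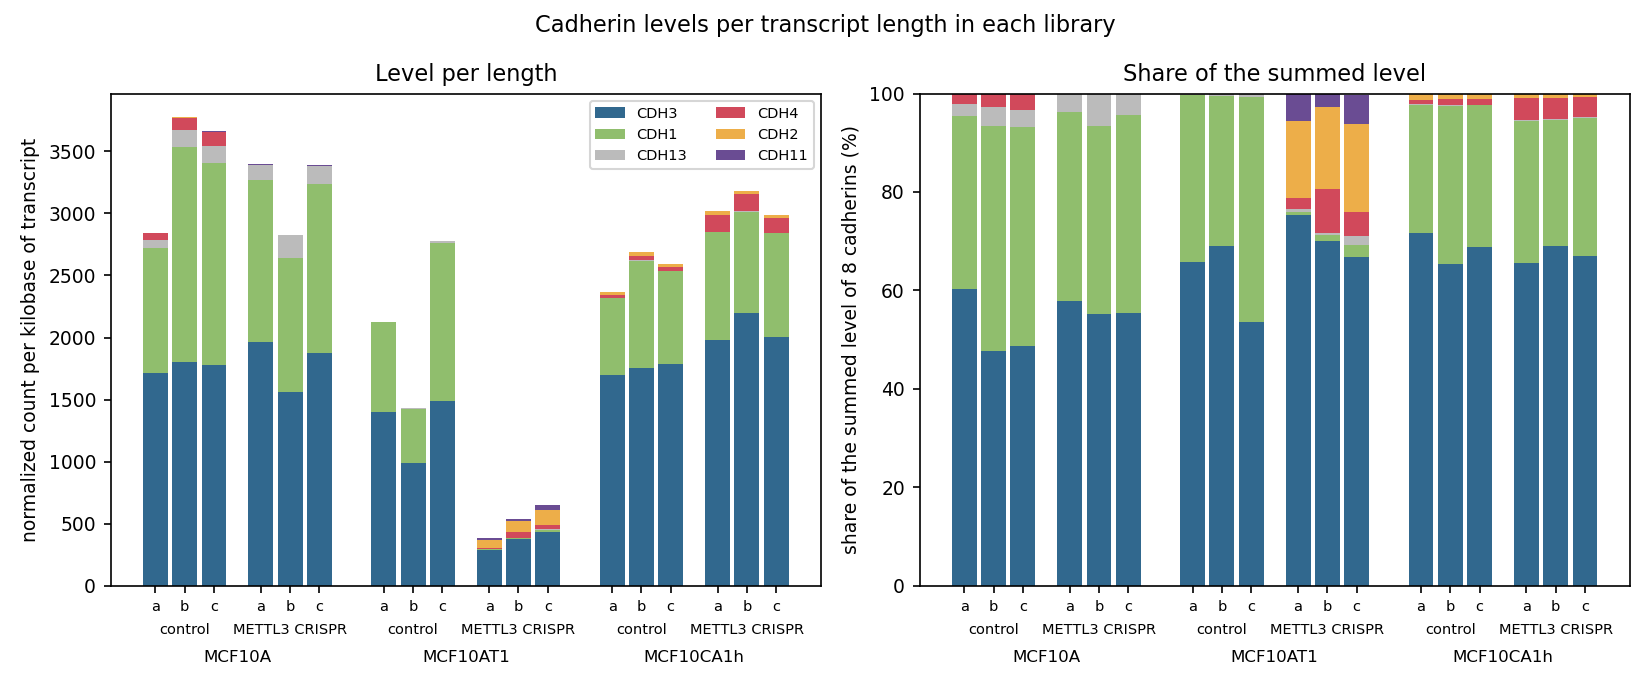
Level of 6 cadherins per kilobase of canonical transcript (left, normalized count per kilobase) and share of the summed level of all 8 (right, percent) in each of the 18 libraries. CDH5 and CDH6 are counted in the sum and too low to draw. The 3 METTL3 CRISPR libraries of MCF10AT1 sum to between 387 and 649, with CDH3 as the largest part of each.

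In the other lines neither E-cadherin nor P-cadherin passed the test. In MCF10A, CDH1 was at 4836, 8321 and 7843 in control and at 6289, 5209 and 6535 after METTL3 CRISPR (log2 difference -0.19, 95% interval -0.70 to 0.33, adjusted p = 0.715). In MCF10CA1h it was at 2974, 4148 and 3582 in control and at 4179, 3927 and 4028 after METTL3 CRISPR (log2 difference 0.19, 95% interval -0.07 to 0.46, adjusted p = 0.327). The arms overlapped in both lines. CDH3 was between 6949 and 8731 in the 6 MCF10A libraries, with overlapping arms (log2 difference 0.02, adjusted p = 0.962). In MCF10CA1h it was at 7562, 7826 and 7960.2 in control and at 8817, 9771 and 8923 after METTL3 CRISPR, arms that did not overlap, as was the case for 32.7% of all genes tested there, and the difference of 0.24 did not pass (adjusted p = 0.096). The summed level per kilobase after METTL3 CRISPR was 93.4% of control in MCF10A and 120% in MCF10CA1h.

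N-cadherin was present in MCF10CA1h whether or not METTL3 had been targeted. CDH2 was at 115, 107 and 99 in the control libraries and at 116, 103 and 94.4 in the METTL3 CRISPR libraries (log2 difference -0.04, 95% interval -0.47 to 0.39, adjusted p = 0.922). In MCF10A it was low, at 10.9, 13.8 and 14.5 in control and 7.8, 6.24 and 9.69 after METTL3 CRISPR. The MCF10A arms did not overlap, which held for 23.9% of all genes tested in that line, and the difference of -0.66 did not pass the test (95% interval -1.68 to 0.35, adjusted p = 0.481). Ordered by mean, CDH2 ran from MCF10AT1 METTL3 CRISPR (358) through the MCF10CA1h groups (107 and 105, overlapping) and the MCF10A groups (13 and 7.91) to MCF10AT1 control (1.61). No other neighbours in that order overlapped.

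CDH4 was the only one of the 8 cadherins to pass the test in all 3 lines, and it did so in opposite directions. In MCF10A, R-cadherin mRNA was at 402, 654 and 760.3 in control and was listed at 1.78, 0 and 0 after METTL3 CRISPR (log2 difference -8.70, SE 0.51, adjusted p = 0.0016). It was the only called one of the 5 cadherins tested in MCF10A, where 2.65% of all genes were called. In MCF10CA1h it was at 136, 228 and 215 in control and at 904, 938 and 792 after METTL3 CRISPR. This was a 4.55-fold rise with no overlap (log2 difference 2.21, SE 0.19, adjusted p = 0.000109), again the only call among 5 cadherins tested, where 12.8% of all genes were called. Fitted together with the other lines, the MCF10CA1h difference of 2.21 did not pass (adjusted p = 0.0727). Ordered by mean, CDH4 was highest in MCF10CA1h METTL3 CRISPR (878), then in MCF10A control (605), MCF10AT1 METTL3 CRISPR (197), MCF10CA1h control (193), MCF10AT1 control (3.49) and MCF10A METTL3 CRISPR (0.59). The neighbours at 197 and 193, and those at 3.49 and 0.59, overlapped. The groups with the higher level were thus the control in MCF10A and the METTL3 CRISPR group in the other lines.

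Since CDH4 and CDH2 rose together in MCF10AT1, the promoter windows that RefSeq (GRCh38.p14) gives for them are shown. Entries were found for 2 of the 8 cadherins, with 2 windows each of 250 bases that end just before a listed transcript start and lie within the gene's span in GENCODE 44. Capitals mark the letters CANNTG, searched on both strands, the E-box that basic helix-loop-helix and zinc finger EMT factors are known to bind.
CDH4, chr20:61499171-61499420, plus strand: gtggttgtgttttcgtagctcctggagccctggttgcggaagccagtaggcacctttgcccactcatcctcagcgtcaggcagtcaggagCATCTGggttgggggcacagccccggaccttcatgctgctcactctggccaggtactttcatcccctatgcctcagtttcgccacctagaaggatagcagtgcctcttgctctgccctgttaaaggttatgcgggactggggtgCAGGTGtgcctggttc
CDH4, chr20:61599511-61599760, plus strand: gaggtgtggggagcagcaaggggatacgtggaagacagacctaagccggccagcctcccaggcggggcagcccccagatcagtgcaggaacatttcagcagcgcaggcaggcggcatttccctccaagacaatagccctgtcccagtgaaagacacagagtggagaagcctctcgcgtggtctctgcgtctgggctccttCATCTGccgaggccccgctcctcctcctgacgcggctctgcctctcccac
CDH2, chr18:28177131-28177380, minus strand: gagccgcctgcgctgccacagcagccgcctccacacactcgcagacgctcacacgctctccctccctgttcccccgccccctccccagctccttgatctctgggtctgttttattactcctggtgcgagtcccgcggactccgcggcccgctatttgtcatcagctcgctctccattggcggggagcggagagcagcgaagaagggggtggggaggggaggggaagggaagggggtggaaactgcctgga
CDH2, chr18:28036642-28036891, minus strand: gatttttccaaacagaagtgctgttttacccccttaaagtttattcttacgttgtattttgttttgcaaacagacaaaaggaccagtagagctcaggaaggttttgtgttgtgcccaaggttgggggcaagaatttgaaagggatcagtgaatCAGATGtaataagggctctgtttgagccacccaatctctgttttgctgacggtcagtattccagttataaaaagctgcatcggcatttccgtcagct
Counted from the listed start after each window, the first CDH4 window holds CATCTG at -160 and CAGGTG at -16, and the second CATCTG at -50. Both CDH4 windows lie well inside the gene, whose span begins at chr20:61252261. Which start these cells use was not examined. The first CDH2 window holds no CANNTG and the second holds CAGATG at -97. Of all 35116 windows of this length in the table, 61.8% hold a CANNTG and 17.5% hold CAGGTG or its reverse complement CACCTG. A match is a description of the letters, not of a bound site.

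The remaining cadherins were high in 1 line or group, or near 0 everywhere. T-cadherin marked MCF10A: CDH13 was at 506, 1113 and 1045 in control and at 965, 1432 and 1159 after METTL3 CRISPR, while the other 12 libraries lay between 17.7 and 119. It did not pass in any line (log2 difference 0.48 in MCF10A, -0.83 in MCF10AT1 and 0.17 in MCF10CA1h, adjusted p = 0.465, 0.515 and 0.802). CDH11 outside the MCF10AT1 METTL3 CRISPR group was at 17.3 or less, under the filter in MCF10A and MCF10CA1h. In MCF10CA1h it was at 7.84, 9.52 and 17.3 in control and was listed at 0, 1.25 and 0 after METTL3 CRISPR, the opposite order to MCF10AT1. CDH6 did not exceed 17.1 in any library and CDH5 did not exceed 5.96, so neither was tested.

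**Figure D3:**
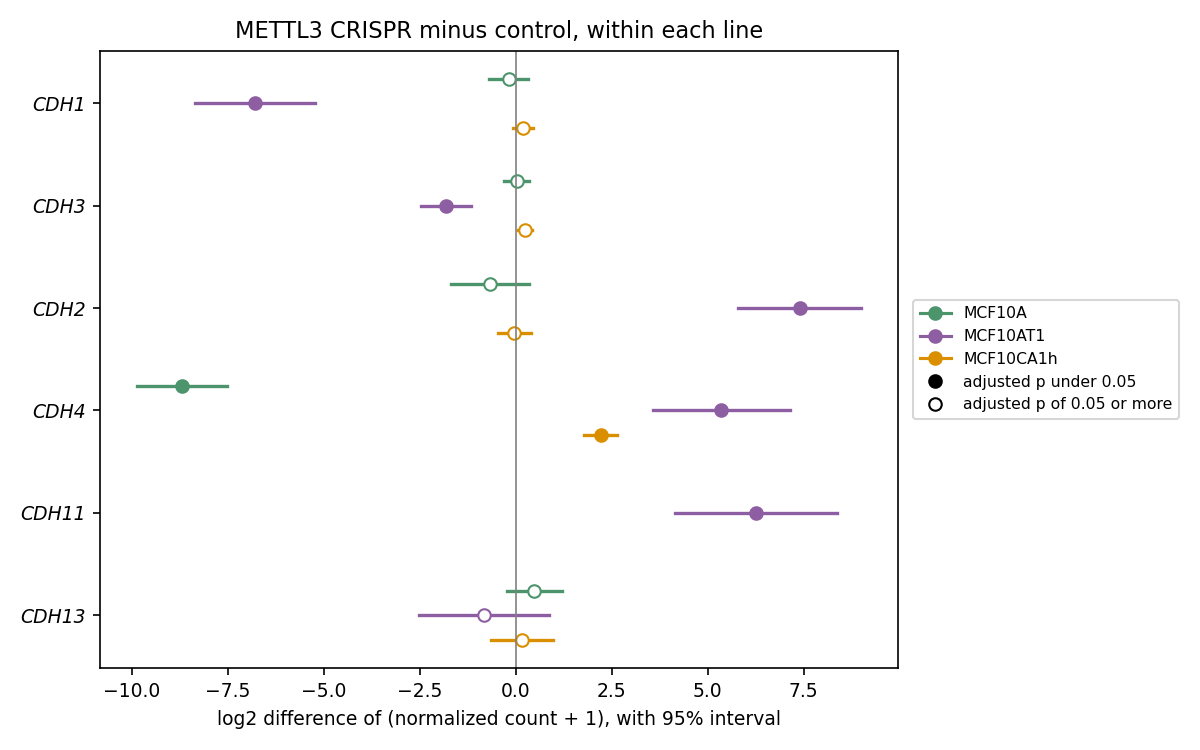
Log2 difference of the normalized count plus 1, METTL3 CRISPR minus control, for the cadherins tested in each line, with 95% intervals from limma. Filled points passed at an adjusted p under 0.05. CDH4 passes in all 3 lines, at -8.70 for MCF10A, 5.35 for MCF10AT1 and 2.21 for MCF10CA1h. The other filled points all belong to MCF10AT1.

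To ask whether the effect of METTL3 CRISPR differed between lines, the differences were compared directly in 1 fit of the 18 libraries, in which 6 cadherins were tested. CDH11 reached the filter there only through the MCF10AT1 METTL3 CRISPR group (mean 164.7, and 11.6 or less in every other group). Between MCF10AT1 and MCF10A, 5 of the 6 differed, where 21.6% of 15897 genes did, and between MCF10CA1h and MCF10AT1 the same number did, where 18.2% of genes did. These contrasts share the MCF10AT1 libraries and are not independent. Between MCF10CA1h and MCF10A, whose share of called genes was 5.34%, CDH4 alone of the 6 differed. For CDH4 the effect was higher in MCF10AT1 than in MCF10A by 14.06 on the log2 scale (95% interval 12.34 to 15.77, adjusted p = 4.17e-09) and higher in MCF10CA1h than in MCF10A by 10.91 (9.20 to 12.63, adjusted p = 1.8e-06). Even between the lines in which it rose, the CDH4 effect was lower in MCF10CA1h by 3.14 (95% interval of the difference -4.86 to -1.43, adjusted p = 0.0122), lines whose controls started at 193 and 3.49. The effect on CDH1 did not differ detectably between MCF10CA1h and MCF10A, by 0.38 with an interval of -1.06 to 1.82 (adjusted p = 0.86). CDH13 did not pass in any of the 3 contrasts, but without MCF10AT1 METTL3 CRISPR c its MCF10AT1 minus MCF10A difference was -2.01 (adjusted p = 0.0306). With the replicate letter as a block that difference, -1.31 over all libraries, passed too (adjusted p = 0.021 against 0.249 without the block), which made 6 of 6, where 28.9% of all genes were called with the block.

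**Figure D4:**
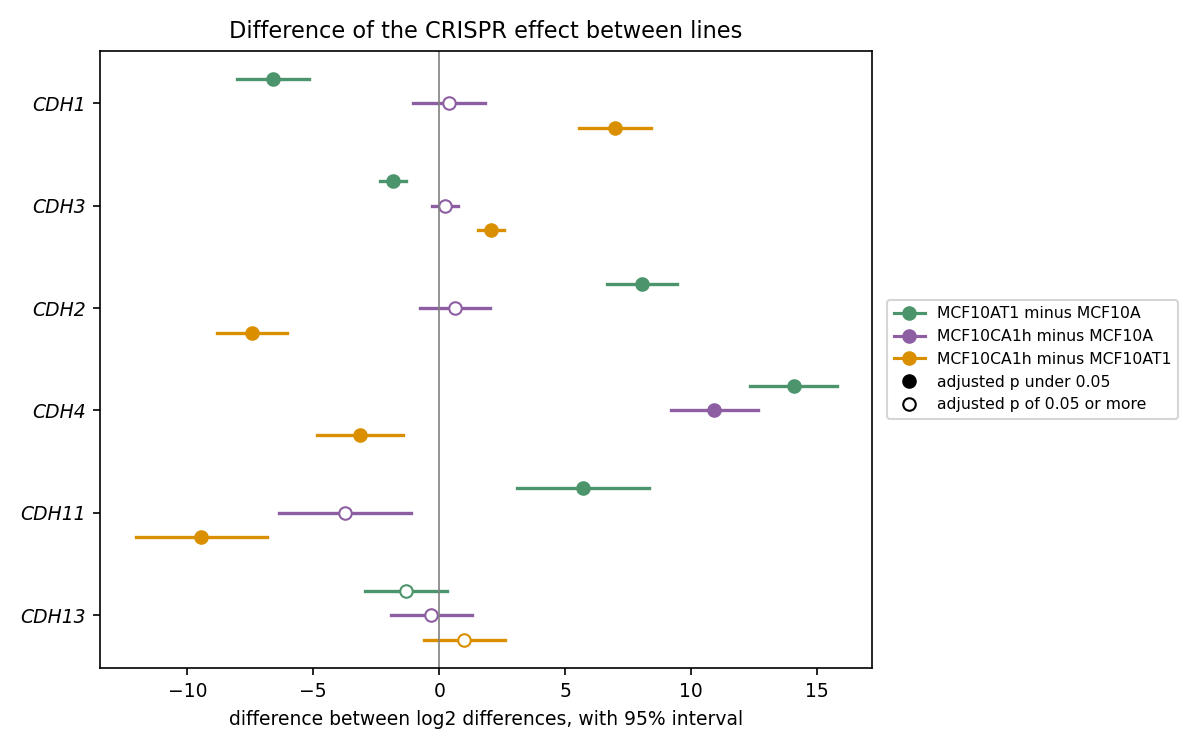
Difference between lines of the METTL3 CRISPR minus control log2 difference, with 95% intervals, for the 6 cadherins tested in the fit of 18 libraries. Filled points passed at an adjusted p under 0.05. CDH4 differs in all 3 contrasts (14.06, 10.91 and -3.14), and CDH4 alone has a filled point for MCF10CA1h minus MCF10A.

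The 9 control libraries were compared between lines to see what the cadherins did along the series without METTL3 CRISPR. Relative to MCF10A, MCF10AT1 controls had less CDH2 (log2 difference -2.76, adjusted p = 0.0111), CDH4 (-7.22, adjusted p = 7.41e-05) and CDH13 (-3.84, adjusted p = 0.00136), which made 3 of 5 cadherins called where 28.1% of 15652 genes were, and 14.7% in this direction. CDH1 was lower by 0.94 without passing (adjusted p = 0.0799), and its groups overlapped through MCF10AT1 control c. Without that library CDH1 (log2 difference -1.33, adjusted p = 0.00514) and CDH3 (-0.59, adjusted p = 0.0173) passed too, so that 5 of 5 did. Leaving that library out also raised the calls over all genes, from 4391 of 15652 to 8142 of 15613. MCF10CA1h controls had more CDH2 than MCF10A (log2 difference 2.95, adjusted p = 0.00466) and less CDH13 (-4.81, adjusted p = 0.00023) and CDH4 (-1.63, adjusted p = 0.0229). That was 3 of 5 cadherins, where 37.8% of genes were called. The CDH4 call was lost when MCF10A control b or c or MCF10CA1h control a or c was left out, with adjusted p from 0.0569 to 0.0921. Compared with MCF10AT1, MCF10CA1h controls had more CDH2 (log2 difference 5.71, adjusted p = 0.000341) and more CDH4 (5.59, adjusted p = 0.000112), 2 of 5 where 21.8% of genes were called, 11% in this direction. Those contrasts share their control libraries with the comparisons within lines. Between the later lines no E-cadherin difference was detected: CDH1 differed by -0.01 (95% interval -0.83 to 0.82, adjusted p = 0.991). N-cadherin in MCF10CA1h controls thus stood beside CDH1 at 2974 to 4148. CDH1 differed by -0.95 between MCF10CA1h and MCF10A controls (adjusted p = 0.0686), and passed without MCF10A control a or MCF10AT1 control b or c (lowest adjusted p = 0.0146). CDH3 was higher in MCF10CA1h than in MCF10AT1 controls by 0.46 (adjusted p = 0.108), and by 0.57 without MCF10AT1 control c (adjusted p = 0.0281).

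The cytoplasmic partners of cadherins were followed in a list of 21 junction genes. Of these 20 had values and 18 were tested in each line. Beta-catenin is not among the genes reported here. In MCF10AT1, 7 of the 18 fell and none rose, where 5.96% of all genes tested fell and 7.07% rose, with a median log2 difference of -1.06 beside 0.02 over all genes tested. CTNND1, which encodes p120-catenin and keeps cadherins at the surface, was at 4895, 3174 and 4676 in control and at 1177, 1082 and 1303 after METTL3 CRISPR (log2 difference -1.82, SE 0.27, adjusted p = 0.0034). JUP, which encodes plakoglobin, fell from 7555, 7983 and 6524 to 3185, 2773 and 2143 (log2 difference -1.46, adjusted p = 0.00826). CTNNA1, the alpha-catenin that links the complex to actin, was at 11376, 9919.8 and 10394 in control and at 12497, 13029 and 12028 after METTL3 CRISPR. These arms did not overlap, as was so for 32.8% of all genes tested, and the difference did not pass (log2 difference 0.25, adjusted p = 0.557). The largest falls of the list were in NECTIN4, a nectin adhesion receptor (-4.98, adjusted p = 0.000452), CAMSAP3, which binds microtubule minus ends (-4.77, adjusted p = 0.000821), and PLEKHA7, which joins p120-catenin to CAMSAP3 at the junction (-2.44, adjusted p = 0.00713). With the replicate block, under which 24.5% of all genes were called, 2 rose and 10 fell. In MCF10CA1h, LIMA1 (0.69, adjusted p = 0.00576) and CTNND1 (0.49, adjusted p = 0.0364, and 0.0575 with the block) rose and CAMSAP3 fell (-1.62, adjusted p = 0.0251). That was 3 of 18 called, where 12.8% of all genes tested in this line were. In MCF10A none of the 18 passed, and 1 did with the block, under which 7.6% of all genes were called.

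Genes whose products cut, process or tag cadherins formed a list of 12, of which 11 were tested in each line. KLK7, a kallikrein protease able to cleave E-cadherin, fell in all 3 lines, with log2 differences of -3.08 for MCF10A, -7.46 for MCF10AT1 and -2.28 for MCF10CA1h (adjusted p = 0.00803, 0.000331 and 0.0237). In MCF10AT1 the membrane protease MMP14 also fell (-1.02, adjusted p = 0.0446), and 2 of 11 were called, beside 13% of all genes, against 6 with the block, beside 24.5%. In MCF10CA1h MMP14 (0.41, adjusted p = 0.0204) and PSENEN, which encodes a small membrane protein of a protease complex (0.40, adjusted p = 0.0326, and 0.052 with the block), rose. There 4 of 11 were called in all, beside 12.8% of all genes.

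Of 11 transcription factors known to act on CDH1, 6 fell in MCF10AT1 and none rose, where 5.96% of all genes fell. Without the replicate block neither MCF10A (11 tested) nor MCF10CA1h (9 tested) had a call. With it 1 rose in MCF10A, where 7.6% of all genes were called, and in MCF10CA1h 1 rose and 2 fell, where 12.4% were. The factors with the largest falls were activators or guardians of the epithelial state: OVOL2 went from 562, 736 and 377 to 0, 3.49 and 1.45 (log2 difference -7.92, adjusted p = 0.000202), ELF3 from 6412, 2259.5 and 3811 to 44.1, 15.4 and 34.8 (adjusted p = 0.000112), and GRHL2 from 587, 383 and 963 to 0.92, 32.6 and 0.98 (log2 difference -6.90, adjusted p = 0.00396). SNAI2, which encodes the repressor Slug, fell as well (-2.44, adjusted p = 0.0249). The repressor genes ZEB1 (1.36, 1.28 and 41 in control, 46.9, 33.6 and 148 after METTL3 CRISPR) and ZEB2 (19.9, 2.04 and 45.7, then 92.2, 125 and 243) did not pass, at log2 differences of 3.37 and 3.31 (adjusted p = 0.104 and 0.0582). With the replicate block both did (adjusted p = 0.00522 and 0.00356), and 3 rose and 7 fell of the 11, where 24.5% of all genes were called. SNAI2, ZEB1 and ZEB2 were chosen for naming after their values were seen. GRHL2 was also at 2.37 or less in the 6 MCF10CA1h libraries, in which CDH1 was at 2974 or more.

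Lists of marker genes were read beside these results. Of 8 breast epithelial markers 4 fell in MCF10AT1 after METTL3 CRISPR, namely EPCAM, KRT17, KRT5 and KRT14, where 5.96% of all genes fell. KRT7, KRT8 and KRT18, keratins of simple epithelia, were at 9545 or more in every MCF10AT1 library. TP63, the remaining marker of the list, did not pass and was not lower in mean. It was at 216, 111 and 745 in control and at 517, 411 and 749 after METTL3 CRISPR, arms that overlapped. The summed level of the list was 125403 to 275999 in control and 63450.2 to 139823 after METTL3 CRISPR. Of 10 fibroblast markers 6 were tested and 2 of these rose, THY1 (log2 difference 9.61) and COL3A1 (8.95), where 7.07% of all genes rose, with a summed level of 469.7 to 740.02 in control and 2824 to 4584 after METTL3 CRISPR. Among the others, COL1A2 and LUM were at 5.72 or less in all 6 libraries, while DCN was at 264 to 976, COL1A1 at 46.2 to 211 and FAP at 42.3 to 157, none of which passed. Leukocyte markers summed to 952 to 1818 in control and to 2614 to 3028 after METTL3 CRISPR, most of it CD14, with PTPRC listed at 0 in the MCF10AT1 libraries. Of the 7 leukocyte markers 4 were tested and ITGB2 alone rose, from 357, 337 and 343 to 650, 834 and 609.9 (log2 difference 1.00, adjusted p = 0.049), against 3 called with the block, 2 of them higher. Endothelial markers overlapped between arms (254 to 899.8 and 421 to 672), most of them PECAM1. Schwann cell and melanocyte markers did so too (91.1 to 245 and 76 to 132), and SOX10 was listed at 0. The part of these genes in the cadherin results was not tested.

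Genes whose pattern was most like that of a cadherin were listed by Pearson correlation of log2 values over the 18 libraries among 12442 genes, as a description, since the libraries of a group share a clone. For CDH1 these were CDS1 (r = 0.98), PNLIPRP3, C1orf116, DENND1C and PTAFR, each with its lowest mean in MCF10AT1 METTL3 CRISPR. The most opposite were B3GAT3 (r = -0.97), CDK5RAP2 and CSRP1, each highest in that group. For CDH2 they were GRIN2D (r = 0.97), VIM, the gene of the mesenchymal filament vimentin (r = 0.96), LHFPL6, BDKRB1 and TRAM2. VIM had a mean of 65859.6 in MCF10AT1 METTL3 CRISPR, 26533 and 31171 in the MCF10CA1h control and METTL3 CRISPR groups and 3922 in MCF10AT1 control, the same order of groups at both ends as CDH2. For CDH4 the closest were SLC10A3 (r = 0.91), ID1 (r = 0.90), SMTN, NECAP2 and PPP1R11. ID1, a target of BMP signalling, had means of 4889.6 and 1796 in MCF10A control and METTL3 CRISPR, and 1989 and 4840.3 in the MCF10AT1 groups. In the MCF10CA1h groups its means were 4781 and 5589, beside 193 and 878 for CDH4.

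In the genome (hg38), CDH3 (chr16:68636189-68727468) and CDH1 (chr16:68737292-68835537) are neighbours on the plus strand with 9823 bases between them, and both fell in MCF10AT1, by different amounts. CDH11 (chr16:64943753-65126112, minus strand), CDH5 (chr16:66366690-66404784) and CDH13 (chr16:82626965-83800640) lie on the same chromosome. CDH2 is at chr18:27932879-28177946 on the minus strand, CDH4 at chr20:61252261-61940617 and CDH6 at chr5:31193686-31329146. Exons of CDH1, CDH2, CDH3, CDH6 and CDH13 overlap an exon annotated on the opposite strand, which includes CDH3-AS1 and CDH13-AS2, and those of CDH6 and CDH11 overlap 1 on the same strand. CDH4 and CDH5 have no such overlap. The values of overlapping genes are uncertain to that extent, as the strand setting of the read assignment is not given in the sources used here.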

How the data were processed

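RNA of 18 libraries, 3 in each of 6 groups, was sequenced from both ends. The methods describe stranded total RNA libraries depleted of ribosomal RNA, while the sample labels say polyA RNA, and this was not settled here. Per the labels and the methods, the authors assigned reads to hg38 transcripts by Kallisto 0.46.1, took gene totals by tximport and normalized them with DESeq2 1.26.0 in R 4.1.1. The authors deposited the resulting normalized counts, a signal on a common scale that holds neither reads nor values per length. The table had values for 35933 genes, 24646 rows without values were not used, and 35894 symbols were matched (39 were not). Whole reads could not be recovered: between 10.6% and 39% of low values lay within 0.05 of a whole multiple of a library's commonest low value. Depth per gene is therefore unknown, and no counting interval is given. Size factors computed again were 1.013 to 1.018, so libraries were already on 1 scale. At most 1.22% of genes had the same value in any of the 153 pairs of libraries.

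Differences were tested with limma 3.58.1 (lmFit, eBayes with trend) in R 4.3.3 on the log2 of the value plus 1, leaving out genes whose mean over the fitted libraries was under 10, with two-sided p adjusted over all genes tested by Benjamini-Hochberg and a threshold of 0.05. Each line was fitted alone (6 libraries), differences between lines in 1 fit of 18 libraries, and controls in a fit of 9. Lengths, positions and exon overlaps came from GENCODE 44 on hg38, and promoter windows from RefSeq. Python 3.11.15, pandas 2.3.3, NumPy 2.4.6 and matplotlib 3.10.9 were used for the rest.

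Replicate letters come from the sample titles. Deviations from the group means of libraries with the same letter were correlated over 15897 genes, with r = 0.22, 0.20 and 0.12 in MCF10A and 0.11, 0.29 and 0.48 in MCF10AT1, all over 0.1, but -0.01, 0.02 and 0.05 in MCF10CA1h. The letters thus pair the libraries of the first 2 lines, by this hint from the data. The replicate block was run as an alternative and is given where it changed the call of a named gene or moved a count by over 1.5 times, for marker lists in MCF10A and MCF10CA1h in the closing part only. Also tried were 0.5 or 5 as pseudocount, a filter mean of 50 or none, no trend, median-of-ratios or equal-sum scaling, a threshold of 0.01, library weights, a joint fit or a fit of 2 lines, and each library left out in turn.

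The 8 cadherins, the lists of related genes and markers and the tests were chosen with earlier results of these data known. Named are all 8 cadherins, METTL3, CTNND1, CTNNA1 and JUP, other cadherins called in a line, the 3 called genes with the largest change of each list and line, and the genes closest in pattern to CDH1, CDH2 and CDH4. Others were named after their values were seen, and some listed genes are not reported here.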

Additional observations from a re-analysis of the deposited data

Results flagged for a closer look

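Each of these results was picked out because the METTL3 CRISPR effect on a cadherin differed between 2 lines by a test of the difference itself (limma, 1 fit of 18 libraries, adjusted p under 0.05). Values are differences between log2 differences. For MCF10AT1 minus MCF10A they were -6.61 for CDH1, 8.06 for CDH2, -1.83 for CDH3, 14.06 for CDH4 and 5.70 for CDH11. For MCF10CA1h minus MCF10A the value was 10.91 for CDH4. For MCF10CA1h minus MCF10AT1 they were 6.99 for CDH1, -7.43 for CDH2, 2.04 for CDH3, -3.14 for CDH4 and -9.44 for CDH11. The MCF10AT1 libraries enter all but 1 of these 11 values. The size of the CDH4, CDH2 and CDH11 values rests on groups at or near 0 and moved with the pseudocount. From 0.5 to 5, CDH4 went from 15.04 to 11.08 and CDH2 from 8.63 to 6.26 for MCF10AT1 minus MCF10A. CDH11 went from -10.85 to -6.13 for MCF10CA1h minus MCF10AT1, and it reached the filter through the MCF10AT1 METTL3 CRISPR group alone. Each arm of each line is a single CRISPR line, so a difference between lines and a difference between clones cannot be told apart.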

How the results depend on the processing

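Every call of a cadherin within MCF10A and MCF10AT1 held under each alternative run, and under each library left out (1 called in MCF10A and 5 in MCF10AT1, in 6 fits each). In MCF10CA1h the count of 1 became 2 without a filter, as low CDH11 then entered, and 0 in the joint fit of 18 libraries, where CDH4 had an adjusted p of 0.0727. The count stayed at 1 with each library left out. Over all genes, 1929 of 15127 were called in the main fit of this line, 1658 of 32247 without a filter and 248 of 15897 in the joint fit. With the replicate block 6 cadherins differed between MCF10AT1 and MCF10A in place of 5, and no other cadherin's call changed. Among the marker lists the block moved the calls in MCF10A from 1 to 3 for epithelial, 0 to 2 for fibroblast and 0 to 1 for endothelial markers, and in MCF10CA1h from 1 to 2 for endothelial ones. Over all genes the block moved the share called from 2.65% to 7.6% in MCF10A and from 12.8% to 12.4% in MCF10CA1h. With library weights, computed gene by gene because the default did not converge, 2 cadherins in place of 1 differed between MCF10CA1h and MCF10A, and 5 in place of 3 between the MCF10AT1 and MCF10A controls. These weights raised the calls over all genes as well. They went from 849 to 3880 of 15897 for the first contrast and from 4391 to 10446 of 15652 for the second. A filter of 50 left 1 in place of 2 between the MCF10CA1h and MCF10AT1 controls, where 2734 of 12304 genes were called in place of 3410 of 15652. Leaving out 1 library gave counts of 5 to 6 for MCF10AT1 minus MCF10A, of 1 to 2 for MCF10CA1h minus MCF10A (2 without MCF10AT1 control c, through CDH11, adjusted p = 0.04), 5 throughout for MCF10CA1h minus MCF10AT1, and in the controls 3 to 5, 2 to 4 and 2 to 3. CDH11 was at 17.3 or less in MCF10CA1h and MCF10A. Without MCF10AT1 control c, calls over all genes were 1125 of 15888 for MCF10CA1h minus MCF10A. Between the MCF10AT1 and MCF10A controls they were then 8142 of 15613.

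Reversed signs were seen for values that had not passed: CDH13 for MCF10CA1h minus MCF10A with library weights (0.15), CDH1 between MCF10CA1h and MCF10AT1 controls with equal sums (0.11), and with 1 library left out CDH3 in MCF10A (-0.044 to 0.12), CDH2 in MCF10CA1h (-0.12 to 0.033), CDH13 in MCF10CA1h (-0.028 to 0.45), CDH13 for MCF10CA1h minus MCF10A (-0.51 to 0.053), CDH3 in MCF10CA1h against MCF10A controls (-0.036 to 0.0061) and CDH1 in MCF10CA1h against MCF10AT1 controls (-0.39 to 0.39). At an adjusted p under 0.01, CDH4 for MCF10CA1h minus MCF10AT1 (0.0122) and, between controls, CDH2 in MCF10AT1 (0.0111) and CDH4 in MCF10CA1h (0.0229) against MCF10A were lost. The cause of these shifts was not tested. With a pseudocount of 5 the MCF10AT1 differences of CDH2, CDH4 and CDH11 were 5.78, 4.34 and 4.55. The depth per gene is unknown, so values near 0 cannot be given a limit of detection.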

Other observations

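Among 15 further genes with a CDH symbol, few were expressed, and 12, 12 and 10 of them had a control mean under 10 in MCF10A, MCF10AT1 and MCF10CA1h. Of these genes 3 were tested in MCF10A, 3 in MCF10AT1 and 5 in MCF10CA1h. CDH24, a cadherin that binds catenins, was the only one called after METTL3 CRISPR. This made 1 of 3 in MCF10AT1, where 13% of all genes were called. CDH24 was at 387, 230.2 and 263 in MCF10AT1 control and at 57.5, 159 and 76.6 after METTL3 CRISPR (limma, log2 difference -1.68, SE 0.46, adjusted p = 0.0488). CDH19, chosen after its values were seen, was a second cadherin of MCF10CA1h. It was at 530.3, 453 and 362 in control and at 467, 348 and 467 after METTL3 CRISPR there, and at 3.4 or less in the other 12 libraries. The control difference to MCF10A was 8.56 on the log2 scale (adjusted p = 5.35e-05), and METTL3 CRISPR moved it by -0.06 (95% interval -0.46 to 0.33, adjusted p = 0.845). CDH19 is known from Schwann cell precursors and melanocytes. Their factor SOX10 was at 1.14 or less in all MCF10CA1h libraries.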
